A study of Mus musculus with 3 samples.

Results

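Nr4a1, Nr4a2, Nr4a3, Egr1, Egr2 and Egr3, the genes of 2 transcription factor families that antigen receptors switch on, were described across the immune cells of tumors grown from KP1, a murine SCLC (small-cell lung cancer) line. The 6 genes were picked by symbol from 33696 genes in the deposited tables, and all of them were detected in each library. Wild-type female B6129SF1/J mice, the F1 hybrid of the C57BL/6 and 129 strains, received 500000 KP1 cells under the skin and 3 μg of cytokine per dose in the abdominal cavity on alternate days, starting on day 7 and ending on day 19, when tumors were taken. One library of sorted live CD45+ cells was made per group: mono-IL-10, a monomeric form of IL-10; IL-10/2-Trikine, which joins that cytokine to a non-agonist IL-2 variant recruiting the IL-2 receptor β chain; and the combination, IL-10/2-Trikine + anti-PD-1, with 200 μg of the blocking antibody RMP1-14 added at day 7, day 11, day 15 and day 19. The titles and treatment labels name the antibody for the last group alone, and that reading was used here, although the protocol wording could be read as covering every group. The labels give neither the age nor the number of mice, and no untreated tumor was part of these samples. They call the cells mouse T cells, but B cells, NK cells, macrophages, dendritic cells, neutrophils and tumor cells were present too, each with its own markers.

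The NR4A proteins are orphan nuclear receptors, and the EGR proteins are zinc finger factors. Both families are immediate early genes: a T or B cell receptor that meets antigen raises their transcripts within a short time through calcium, NFAT, MAP kinase and CREB signals, and the transcripts are short-lived. In T cells NR4A factors and EGR2 and EGR3 are known for restraining later responses and for their part in tolerance and exhaustion, while EGR1 is also a general sensor of growth factors, stress and, in myeloid cells, of inflammatory signals. Their level is not a measurement of antigen contact, and in NK cells and macrophages, which lack clonal antigen receptors, other inputs raise the same genes.

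The stretches before the gene starts are shown because the NR4A genes share there a core, TGACG, to which factors of the CREB and ATF family bind. Sequences were found for 4 of the 6 genes in RefSeq (build GRCm38.p6) and run 5′ to 3′ on the gene's strand, at chr15:101266596-101266845 (+) for Nr4a1, chr2:57124004-57124253 (-) for Nr4a2, chr4:48045055-48045152 (+) for Nr4a3 and chr10:67537619-67537868 (+) for Egr2. Capitals mark TGACG on either strand, the EGR-type motif GCGGGGGCG in Nr4a1, the MEF2 box in Nr4a2 and the CArG box, a serum response factor motif, in Egr2:
Nr4a1: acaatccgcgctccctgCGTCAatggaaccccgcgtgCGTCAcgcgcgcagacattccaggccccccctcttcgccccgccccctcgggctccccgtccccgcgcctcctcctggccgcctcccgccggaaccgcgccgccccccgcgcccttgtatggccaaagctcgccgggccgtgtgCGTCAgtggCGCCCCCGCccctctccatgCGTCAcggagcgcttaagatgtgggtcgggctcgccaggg
Nr4a2: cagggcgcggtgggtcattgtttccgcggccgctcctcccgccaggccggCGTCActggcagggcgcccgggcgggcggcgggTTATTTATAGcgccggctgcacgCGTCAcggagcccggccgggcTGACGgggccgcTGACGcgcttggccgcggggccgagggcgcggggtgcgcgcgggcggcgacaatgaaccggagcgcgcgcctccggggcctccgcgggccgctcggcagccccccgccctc
Nr4a3: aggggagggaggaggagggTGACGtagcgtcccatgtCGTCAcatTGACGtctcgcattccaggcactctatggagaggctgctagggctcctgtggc
Egr2: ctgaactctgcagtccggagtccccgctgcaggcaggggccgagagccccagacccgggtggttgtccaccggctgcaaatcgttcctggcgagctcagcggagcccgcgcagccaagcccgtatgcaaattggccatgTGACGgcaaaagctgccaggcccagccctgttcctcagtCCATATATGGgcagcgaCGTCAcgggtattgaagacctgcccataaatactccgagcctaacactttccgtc

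Over the 250 bases before the start, each NR4A gene held 4 copies of TGACG and Egr2 held 2; the part of the Nr4a3 window that an annotated exon covers is not printed, and the printed 98 bases hold 3 of its copies. Of 32851 RefSeq promoters of the same length, 17.8% held at least 1 copy on either strand, 0.688% at least 3 and 0.137% at least 4. The full palindrome TGACGTCA, which contains TGACG, occurred in 1.55% of promoters, GCGGGGGCG in 2.57%, the MEF2 box in 2.92% and the CArG box in 1.47%. A letter match is a description and does not show that a factor was bound in these cells. Egr1 and Egr3 had no entry in the sequence table.

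The 3 libraries kept 22235, 22707 and 26967 cells in the order mono-IL-10, IL-10/2-Trikine and combination, which is the order of all triplets of values that follow. They held 158570946, 197176873 and 175794959 UMIs (unique molecular identifiers, each counting 1 captured transcript), and the median cell had 4774, 5562 and 4273. Between 137 and 180 cell barcodes were shared by any pair of libraries, under 1% of each. Classes were built by clustering and are called "-like" because marker genes named them. T cell-like cells numbered 8250, 9841 and 12185, among them 3311, 4446 and 4275 CD8, 815, 1973 and 3289 CD4, 481, 1154 and 1324 regulatory and 2790, 836 and 1318 naive cells. The B cell-like class was small in the last 2 libraries, at 1585, 171 and 244 cells. Levels are UMIs per 1000000 UMIs of a class (CPM). With 1 library a group there was no replicate, so no test was possible: each ratio compares 2 libraries, and its 95% interval covers counting error only. Fewer cells expressing a gene and less RNA in each cell cannot be told apart in a class level.

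Nr4a1, also called Nur77 and widely used as a reporter of antigen receptor signal, was highest, among the 16 classes with at least 50 cells in every library (T cell-like cells taken whole and by subset), in neutrophil-like cells, at 491, 316 and 570.1 CPM. The smaller ILC2-like class of 37, 119 and 40 cells held 1030, 643 and 503 CPM. Chil3-led monocyte-like cells followed with 461, 309.6 and 263 CPM and Cd3-low NK cell-like cells with 360.0, 209.7 and 265 CPM. CD4 T cell-like cells held 233, 160.3 and 185 CPM and regulatory T cell-like cells 178, 218 and 210.1 CPM. CD8 T cell-like cells lay lower at 99.7, 95.4 and 109 CPM, naive T cell-like cells at 89.5, 77.4 and 90.9 CPM, and KP1 tumor cell-like cells lowest at 43.6, 36.7 and 36.2 CPM. Of the 15 neighboring pairs in the order of 16 classes, 10 had ranges over the libraries that overlapped.

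Nr4a2, or Nurr1, showed another order. Its mean was highest in CD4 T cell-like cells, at 334, 201 and 300.01 CPM, close to Cd3-low NK cell-like cells with 279, 242 and 274 CPM and to the cDC2-like class with 226, 240.5 and 315 CPM. CD8 T cell-like cells held 229, 179 and 231 CPM. Nr4a2 was lowest in C1q macrophage-like cells, at 25.1, 50.6 and 42.1 CPM, a range below those of 14 of the other 15 classes and overlapping with KP1 tumor cell-like cells at 53.2, 39.6 and 52.3 CPM.

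Nr4a3, or Nor1, whose transcript depends closely on receptor signal in T cells, was highest in the cDC2-like class at 244, 204 and 324 CPM, a class that also held markers of other dendritic cells and T cell markers summing to 2739, 3429 and 2481 CPM, with a Cd3 UMI in 54.2% of its cells. Cd3-low NK cell-like cells held 208, 127 and 209 CPM. Among T cells the level was 144, 80.4 and 121 CPM in CD4, 82.1, 78.3 and 111 CPM in regulatory, 68.8, 74.0 and 112 CPM in naive and 39.2, 26.0 and 46.3 CPM in CD8 cells. The CD8 range lay below the ranges of the other 3 T cell subsets.

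Egr1 was highest in myeloid and tumor cell classes. Neutrophil-like cells held 1140.5, 1089 and 941 CPM, KP1 tumor cell-like cells 459.9, 632 and 466 CPM and C1q macrophage-like cells 197, 324 and 229 CPM, and these 3 ranges did not overlap. T cell-like cells held 52.5, 34.8 and 46.1 CPM. Egr2 was low in T cell-like cells, at 6.04, 2.18 and 2.23 CPM, and higher in Chil3-led monocyte-like cells at 20.2, 22.6 and 29.4 CPM and in the cDC2-like class at 25.4, 25.0 and 21.1 CPM. Cd3-low NK cell-like and B cell-like cells lay between, over ranges of 8.42 to 14.0 and 7.85 to 16.8 CPM. Egr3 was highest on average in B cell-like cells, a class mixed with markers of other lineages, at 28.6, 23.0 and 70.8 CPM, and in KP1 tumor cell-like cells at 35.5, 37.4 and 36.9 CPM. T cell-like cells held 6.28, 3.34 and 2.63 CPM of Egr3. Egr2 and Egr3 rested on few counts in the T cell subsets, such as 44, 42 and 70 UMIs of Egr2 in CD4 cells.

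**Figure D1:**
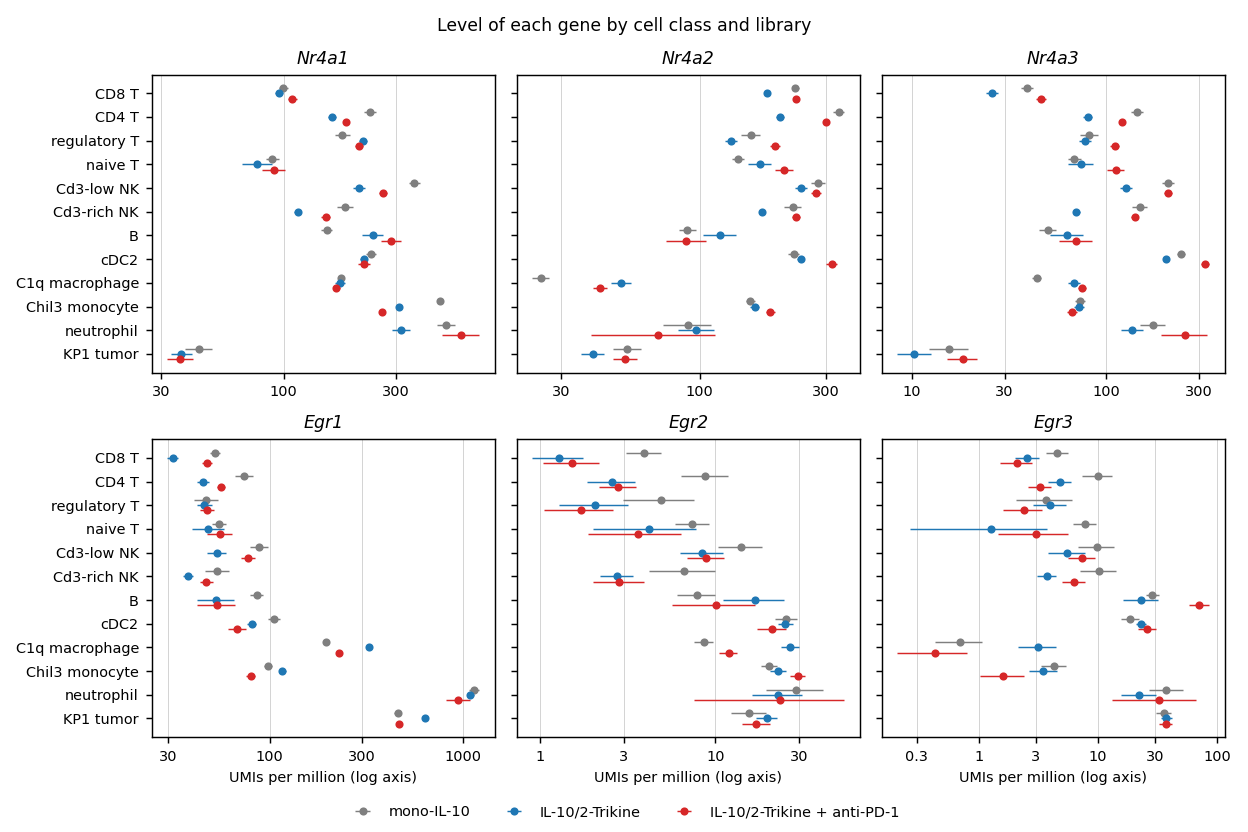
Level of each gene in CPM (log axis, 1 scale per panel) in 12 cell classes; points are the 3 libraries, grey mono-IL-10, blue IL-10/2-Trikine and red the combination, while bars are 95% counting intervals. Nr4a1 and Nr4a3 are spread over lymphoid and myeloid classes, Nr4a2 is lowest in C1q macrophages and tumor cells, and Egr1 is highest in neutrophils, at 941 to 1140.5.

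Transcripts in barcodes of 10 to 100 UMIs, mostly droplets with free RNA, held all 6 genes as well. Nr4a1 stood there at 168, 158 and 163 CPM and Nr4a2 at 94.0, 184 and 157 CPM. By marker genes of other lineages, free RNA was estimated at 2.43% to 3.20% of the UMIs of T cell-like cells and at 8.30%, 14.9% and 7.06% of those of C1q macrophage-like cells. The estimate takes all such transcripts as free RNA, so cells of other lineages or doublets in a class raise it too. After thinning each cell to 1000 UMIs, Nr4a3 was seen in 13.3%, 10.9% and 14.1% of CD4 T cell-like cells against 1.74%, 0.628% and 1.52% of KP1 tumor cell-like cells, and without thinning in 38.7%, 37.2% and 44.6% against 4.51%, 5.48% and 7.53%. The median depths of the thinned cells were 4284, 4942 and 5341 UMIs in the CD4 class and 6632, 12545 and 7496 UMIs in the tumor class. Nr4a2 was seen in 22.5%, 16.1% and 25.0% of thinned CD4 cells and in 2.28%, 3.24% and 3.49% of thinned C1q macrophage-like cells, which had median depths of 6744, 5281 and 5364 UMIs, a difference beyond the counting intervals.

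IL-10/2-Trikine against mono-IL-10 asks what the added IL-2 receptor signal goes with. A gene is called higher or lower where the ratio of CPM was at least 1.5-fold and the counting interval left out 1, among genes with at least 20 UMIs in the pair. In CD4 T cell-like cells 5 of the 6 genes were lower, where 12.0% of all genes tested in that class were called lower. Egr2 stood at 8.76 CPM in mono-IL-10 and 2.56 CPM in IL-10/2-Trikine, a ratio of 0.292 (0.187 to 0.457) from 44 and 42 UMIs. Egr3, its close relative, had a ratio of 0.478 (0.331 to 0.696), Nr4a3 of 0.557 (0.509 to 0.611), Nr4a2 of 0.602 (0.568 to 0.639) and Egr1 of 0.612 (0.540 to 0.695). Nr4a1 had 0.688 (0.642 to 0.738) and missed the 1.5-fold limit. The median over the 6 genes was -0.79 on the log2 scale, beside -0.11 over the 11825 genes tested. The sum of the 6 genes went from 804 to 494.5 CPM, a ratio of 0.615 (0.592 to 0.639). In the same class 20 early and stress genes summed to 7102 and 5765 CPM and NK markers to 3399 and 6739 CPM. Their part was not tested.

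The CD4 class had 2 sub-clusters. In the Ccl3-led one, whose leading genes include the chemokines Ccl3 and Ccl4 and the cytokine gene Ifng, all 6 genes were called lower, against 12.6% of genes there, with Egr2 at 9.24 and 1.23 CPM from 33 and 12 UMIs and Egr1 at 70.0 and 33.6 CPM. In the other, led by Lgals7 with Cd40lg, Nr4a3 was called lower, where 13.4% of genes were, at 179.5 and 93.6 CPM, and the other five were not called, with ratios of 0.545 to 0.8002. A further large cluster of T cells stayed unnamed, with Fscn1 and Xcl1 among its leading genes. It had 72.8% of cells with a Cd4 UMI and 32.7% with a Cd8 UMI, and Nr4a2 went there from 379.6 to 196.5 CPM and Nr4a3 from 159.6 to 73.0 CPM, while Nr4a1 stood at 146 and 149 CPM; 4 of the 6 genes were called lower there, against 17.4% of genes. A small cluster led by Zbtb16, with 51, 51 and 40 cells, stayed outside the CD4 class because Cd4 was not among its markers, 14.8% of its cells having a Cd4 UMI. There 3 of 4 tested genes were called higher, where 5.07% of genes were: Nr4a2 and Egr1, each on 10 and 26 UMIs with a ratio of 2.41 (1.12 to 5.595), and Nr4a3 on 34 and 59 UMIs with a ratio of 1.61 (1.04 to 2.53).

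CD8 T cell-like cells had 4 of the 6 genes called lower, against 11.4% of genes. Egr2 went from 3.93 to 1.28 CPM on 77 and 38 UMIs, a ratio of 0.326 (0.215 to 0.487), and Egr3 from 4.54 to 2.53 CPM, a ratio of 0.557 (0.404 to 0.765). Egr1 had a ratio of 0.604 (0.553 to 0.661) and Nr4a3 of 0.663 (0.599 to 0.734). Nr4a2 had 0.782 (0.751 to 0.814), and Nr4a1 stood at 99.7 and 95.4 CPM with an interval that held 1 (0.903 to 1.01). Among regulatory T cell-like cells Egr2 alone was called lower, where 7.15% of genes were, at 4.89 and 2.07 CPM from 20 and 21 UMIs, while Nr4a1 had a ratio of 1.22 (1.12 to 1.33). In naive T cell-like cells Egr3 was the called gene, with 85 and 3 UMIs and a ratio of 0.163 (0.0329 to 0.492), where 7.90% of genes were called lower. NK markers summed in the naive class to 1416 and 3879 CPM and early and stress genes to 5963 and 4428 CPM. Their part was not tested. The naive class also shifted between its sub-clusters, since the Igfbp4-led one held 1278 of 2790 cells in mono-IL-10 and 100 of 836 in IL-10/2-Trikine. In the Bach2-led one, with 1512 and 736 cells, no gene was called, and in the Igfbp4-led one Egr1 was called lower, on 274 and 9 UMIs, where 5.09% of genes were. The sum of the 6 genes had a ratio of 1.02 (0.965 to 1.07) in regulatory and 1.01 (0.942 to 1.09) in naive cells.

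The lower sum of the CD8 class was not seen beyond counting error in any of its sub-clusters. The Calcb-led one held 1470, 474 and 1412 cells, the Ly6c2-led one 1465, 2293 and 1854 and the third, with Gzma and Gzmk among its leading genes, 376, 1679 and 1009 cells, so the Calcb-led one was smaller and the third larger in IL-10/2-Trikine than in mono-IL-10. The sum of the 6 genes had a ratio of 0.958 (0.898 to 1.02) in the first, 1.001 (0.952 to 1.05) in the second and 1.19 (1.11 to 1.28) in the third, beside 0.784 (0.761 to 0.807) for the class. In the third sub-cluster, where the genes were lowest, Nr4a1 stood at 51.4 and 77.4 CPM and was called higher, against 2.64% of genes. In the Calcb-led one Egr2 was called lower on 57 and 2 UMIs, against 4.85% of genes. The sub-clusters were found from expression in the same cells, and how far a shift between them accounts for the class ratio was not tested.

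Over all T cell-like cells 3 genes, Egr1, Egr2 and Egr3, were called lower, against 19.2% of genes, and none higher. The ratio of the sum was 0.841 (0.828 to 0.856), which came to 0.976 with TMM factors and 0.985 with median-of-ratios factors, settings that shift all genes of this class by 0.21 and 0.23 on the log2 scale. These settings lifted the members of the CD8 class by 0.15 and 0.14 and those of the CD4 class by 0.17 and 0.15, which ended the calls of Nr4a3 and Egr1 in CD8 and of Nr4a2 and Egr1 in CD4 cells, and that of Egr1 in T cell-like cells as a whole. Egr2 and Egr3 were called in both subsets under each of 12 alternatives that kept the 1.5-fold limit. With a 2-fold limit Egr3 was not called in CD8 cells. None of the 12 held the sub-clusters of these subsets at equal shares. Egr3 was called lower in no CD8 sub-cluster, and neither gene was called in the Lgals7-led CD4 one. Cells with an Mki67 UMI, a proliferation marker, were 920 of 3311, 1906 of 4446 and 1056 of 4275 in the CD8 class. In CD8 cells without one, the log2 difference was -0.56 for Nr4a3, which was then not called, and -0.73 for Egr1 and -1.92 for Egr2, which were. NK markers summed to 3739, 7835 and 6622 CPM in T cell-like cells, and 20 early and stress genes, which tissue handling can raise too, to 5363, 4748 and 5480 CPM. Their part in the differences was not tested.

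In Cd3-low NK cell-like cells 5 of the 6 genes were called lower, against 7.60% of genes. Nr4a1 went from 360.0 to 209.7 CPM, a ratio of 0.582 (0.539 to 0.630), while Nr4a3 stood at 208 and 127 CPM with a ratio of 0.612 (0.553 to 0.678) and Egr1 at 88.3 and 53.3 CPM with 0.604 (0.516 to 0.707). Egr2 and Egr3 had ratios of 0.603 (0.401 to 0.907) and 0.563 (0.341 to 0.930) on 34 to 52 UMIs a library. Egr3 turned to 0.07 higher on the log2 scale in a per-cell marker gate and was not called there. TMM factors also ended the call of Egr3 in this class, since its interval then held 1. Nr4a2, at 279 and 242 CPM, was not called. In the Cd3-rich NK cell-like class, which carries T cell transcripts beside NK markers, 4 genes were called lower, against 14.4% of genes, among them Nr4a3 at 149 and 70.3 CPM with a ratio of 0.471 (0.428 to 0.519) and Egr3 with 0.369 (0.251 to 0.554). TMM and median-of-ratios factors, which shift this class by 0.23 and 0.22 on the log2 scale, ended the call of Nr4a1 there and left 3 genes lower, where 6.94% and 7.33% of genes then were. Early and stress genes summed to 9630, 6086 and 7068 CPM in the Cd3-low class and to 6700, 4240 and 5431 CPM in the Cd3-rich class, where NK markers summed to 7167, 15394 and 11005 CPM. These sums moved with the members' values, and their part was not tested.

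In C1q macrophage-like cells the direction was the opposite, with 5 of 6 genes called higher in IL-10/2-Trikine, against 6.57% of genes, and a median of 0.87 on the log2 scale beside 0.04 over all genes. Egr2, which takes part in macrophage differentiation and alternative activation, stood at 8.58 and 26.7 CPM, a ratio of 3.11 (2.62 to 3.70) on 261 and 275 UMIs. Egr1 stood at 197 and 324 CPM, a ratio of 1.65 (1.58 to 1.72), and Nr4a2 at 25.1 and 50.6 CPM, a ratio of 2.01 (1.80 to 2.25). Nr4a3 had a ratio of 1.56 (1.42 to 1.71), and Egr3 a ratio of 4.50 (2.52 to 8.21) on 21 and 32 UMIs. Nr4a1 did not move beyond counting error, at 176 and 174 CPM, with an interval of 0.936 to 1.04.

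T cell markers moved with the macrophage values: all 11 were detected in C1q macrophage-like cells, and they summed to 202, 453 and 225 CPM. Without barcodes that held UMIs of another lineage the log2 differences were 0.88 for Nr4a2, 0.57 for Nr4a3, 0.70 for Egr1, 1.28 for Egr2 and 2.22 for Egr3, and Nr4a3 was then not called. With free RNA subtracted Nr4a2 came to 0.52 and was not called, while Egr1 came to 0.87 and Egr2 to 1.90. In T cell-like cells of the IL-10/2-Trikine library Nr4a2 stood at 181 CPM, above its macrophage level, Egr3 at 3.34 CPM beside 3.11 CPM in macrophages, within counting error, and Nr4a3 at 58.5 CPM beside 68.2 CPM, whereas Egr1 stood at 34.8 CPM and Egr2 at 2.18 CPM, below theirs. The part of T cell transcripts in the macrophage values was not tested. The class also pooled several clusters, and its 4229, 1835 and 4328 cells were spread over them unevenly. A small Mmp12-led cluster held 22, 68 and 55 of these cells and the largest, led by Adamdec1, 2837, 1068 and 2633. The part of such shifts was not tested. In Chil3-led monocyte-like cells none of the 6 genes was called lower or higher. The free RNA estimate, which mixing with other lineages also raises, came there to 25.3% and 43.0% of UMIs. Nr4a1 stood at 461 and 309.6 CPM, with a ratio of 0.671 (0.647 to 0.696).

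The B cell-like class gave 2 genes higher, where 5.36% of genes were called higher, and 1 gene lower, where 23.6% were. Nr4a1 stood at 153 and 239 CPM, a ratio of 1.57 (1.39 to 1.76), and Egr2 at 7.85 and 16.8 CPM, a ratio of 2.14 (1.31 to 3.40) on 65 and 27 UMIs. Egr1 was called lower, at 85.9 and 52.8 CPM, but came to 1.15 higher on the log2 scale when cells were picked by B cell markers one by one. This class was mixed: B cell markers summed to 5180, 3132 and 4652 CPM in it, T cell markers to 2188, 2322 and 1752 CPM and monocyte or macrophage markers to 2682, 1133 and 1566 CPM. The free RNA estimate came to 68.5%, 48.2% and 49.3% of its UMIs. In a mixed class that estimate cannot separate free RNA from cells of other lineages. The values of this class are therefore not those of B cells alone.

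**Figure D2:**
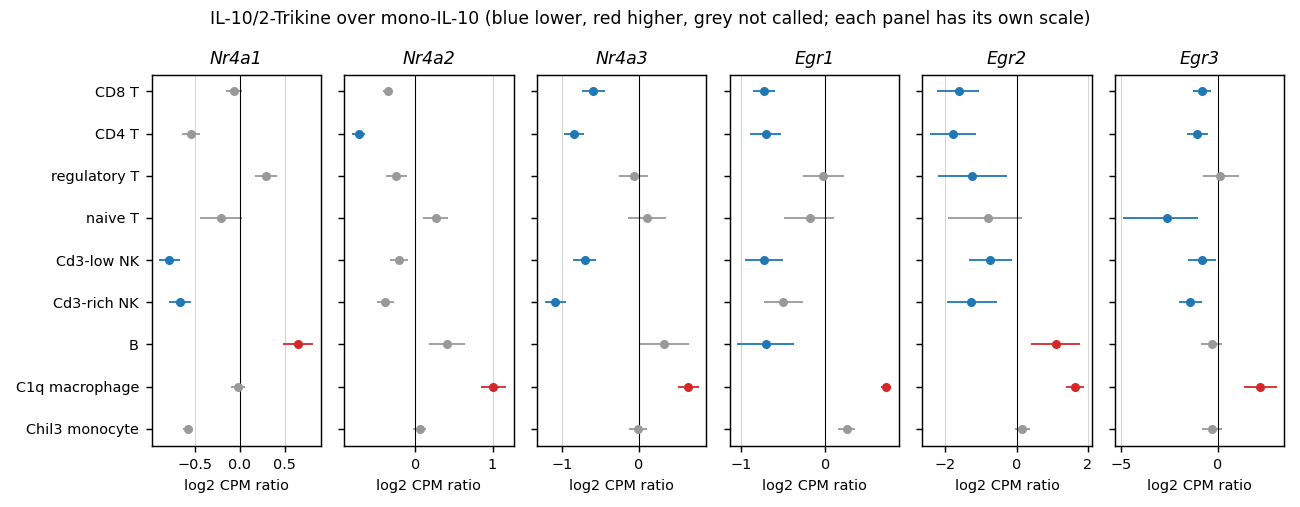
Log2 ratio of CPM, IL-10/2-Trikine over mono-IL-10, for each gene in 9 cell classes; bars are 95% counting intervals, blue and red points were called lower and higher, grey points were not called, and each panel has its own scale. Called points of the CD8, CD4 and NK classes lie to the left of 0 and those of C1q macrophages to the right.

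The combination against IL-10/2-Trikine alone asks what PD-1 blockade adds. It shares the IL-10/2-Trikine library with the comparison above, so a value that is low in that library alone moves both. Nr4a3 was called higher in CD8, naive and both NK cell-like classes. In T cell-like cells it stood at 58.5 and 95.9 CPM, a ratio of 1.64 (1.58 to 1.70), and was the 1 gene of 6 called, against 6.92% of genes called higher; the call was lost at a higher clustering resolution and without Mki67-positive cells. In CD8 T cell-like cells it stood at 26.0 and 46.3 CPM, a ratio of 1.78 (1.62 to 1.96), and Egr1 at 31.6 and 47.5 CPM, a ratio of 1.501 (1.37 to 1.64) at the limit; 7.29% of genes were called there. Of 12 alternatives at the 1.5-fold limit, Egr1 lost its call under 6 and Nr4a3 under none, but neither reached a 2-fold limit. Within the CD8 class the Ly6c2-led sub-cluster, led also by Ccl5, had Nr4a3 at 38.3 and 79.3 CPM, a ratio of 2.07 (1.80 to 2.38), and the Calcb-led one at 31.1 and 47.7 CPM, a ratio of 1.53 (1.18 to 2.01), where 6.36% and 4.17% of genes were called higher. The third CD8 sub-cluster had Nr4a3 at 18.6 and 22.9 CPM, not called.

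CD4 T cell-like cells had no gene called higher, where 4.28% of genes were, although Nr4a3 and Nr4a2 lay just under the 1.5-fold limit, with ratios of 1.499 (1.41 to 1.60) and 1.49 (1.43 to 1.55). The Lgals7-led sub-cluster had Nr4a3 called higher, at 93.6 and 175 CPM with a ratio of 1.87 (1.69 to 2.08), where 5.80% of genes were. The Ccl3-led one, which held 428 of 815, 816 of 1973 and 2120 of 3289 cells of the class, so that the Lgals7-led one was the larger in IL-10/2-Trikine alone, had none called higher, with Nr4a3 at 71.4 and 107 CPM, and had Egr3 called lower, at 4.93 and 2.73 CPM on 48 and 55 UMIs, where 3.31% of genes were. The sum of the 6 genes in the class went from 494.5 to 668 CPM, a ratio of 1.35 (1.32 to 1.39), which is close to that of all T cell-like cells at 1.33 (1.32 to 1.35). Among regulatory cells Nr4a2 had 1.46 (1.37 to 1.57) and Nr4a3 1.42 (1.30 to 1.55), neither called. Egr3 was called lower in them, at 3.94 and 2.36 CPM from 40 and 29 UMIs, where 1.61% of genes were called lower; the call was lost under 5 of 12 alternatives. Naive T cell-like cells had Nr4a3 at 74.0 and 112 CPM, called higher where 4.17% of genes were, a call lost under 6 of 11 alternatives. In these libraries 736 of 836 and 1243 of 1318 of them lay in the Bach2-led sub-cluster. That sub-cluster passed 6 naive and 4 CD8 markers, Ccr7 not among them, with a Cd8 UMI in 62.1% of cells. Its cells may therefore not all be naive.

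Nr4a3 was also called higher in both NK cell-like classes. In the Cd3-rich one 84.1% of cells had a Cd3 UMI and 29.2% an Ncr1 UMI, so it is not a class of NK cells alone. In Cd3-low NK cell-like cells Nr4a3 stood at 127 and 209 CPM, a ratio of 1.64 (1.51 to 1.79), where 3.89% of genes were called higher. In Cd3-rich NK cell-like cells it stood at 70.3 and 140.3 CPM, a ratio of 2.00 (1.88 to 2.12), and Egr3, at 3.72 and 6.21 CPM, was called higher beside it, where 6.63% of genes were. Among cells without an Mki67 UMI the log2 difference of Egr3 was -0.32, not called. In B cell-like cells Egr3 stood at 23.0 and 70.8 CPM on 37 and 105 UMIs, a ratio of 3.08 (2.10 to 4.61), where 11.2% of genes were called higher. The cDC2-like class had Nr4a3 at 204 and 324 CPM, a ratio of 1.59 (1.496 to 1.68), where 7.24% of genes were called higher; T cell markers summed there to 3429 and 2481 CPM and NK markers to 5436 and 3370 CPM, lower in the combination. In C1q macrophage-like cells Egr2 and Egr3 were called lower, where 4.70% of genes were: Egr2 stood at 26.7 and 11.9 CPM, a ratio of 0.445 (0.375 to 0.527), and Egr3 at 3.11 and 0.428 CPM on 32 and 10 UMIs. T cell markers in these cells went from 453 to 225 CPM and the estimated free RNA from 14.9% to 7.06% of UMIs. Their part was not tested. Neutrophil-like cells, 114 in the combination, had Nr4a1 at 316 and 570.1 CPM and Nr4a3 at 136 and 255 CPM called higher, where 11.1% of genes were. In IL-10/2-Trikine against mono-IL-10 their Nr4a1 and Egr3 were called lower, where 19.8% of genes were. Over the 3 libraries B cell markers in this class summed to 1622, 104 and 250 CPM and T cell markers to 1042, 1878 and 1525 CPM. Their part was not tested. Chil3-led monocyte-like cells had Egr3 called lower on 56 and 24 UMIs, where 8.91% of genes were; T cell markers in this class went with it from 1563 to 787 CPM and the estimated free RNA from 43.0% to 18.4% of UMIs, and their part was not tested.

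**Figure D3:**
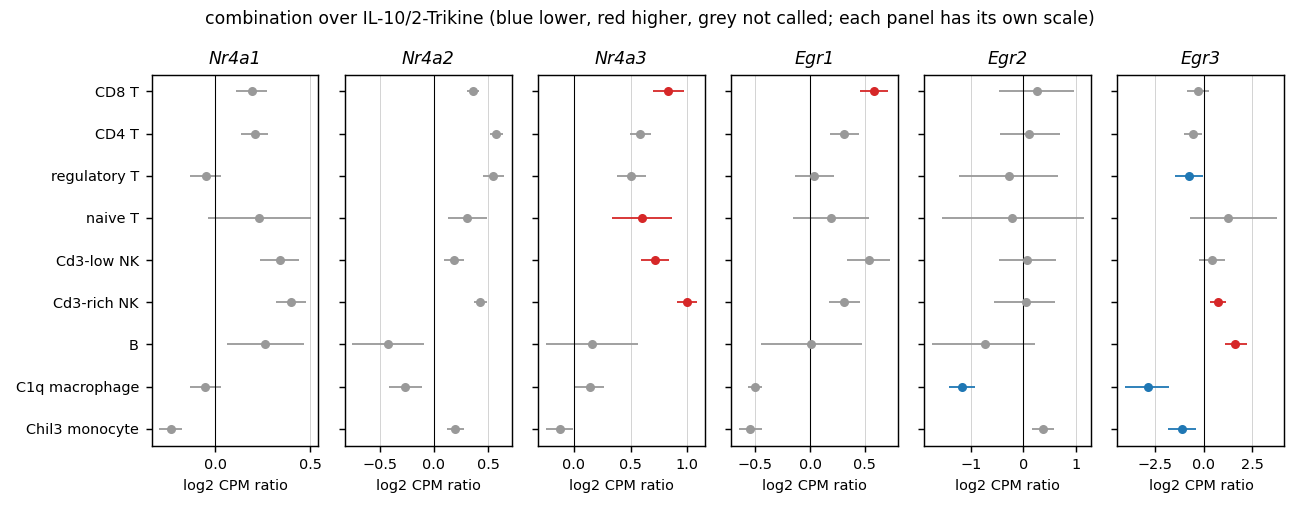
Log2 ratio of CPM, IL-10/2-Trikine + anti-PD-1 over IL-10/2-Trikine, drawn as in the plot of the first comparison. Red points of Nr4a3 in CD8, naive and both NK classes lie between 0.60 and 0.998, and the blue points of Egr2 and Egr3 lie in macrophage, monocyte and regulatory T cell classes.

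Set side by side over the 3 libraries, the genes of CD4 T cell-like cells split in 2 patterns. Nr4a1, Nr4a2, Nr4a3 and Egr1 in CD4 T cell-like cells were lowest in IL-10/2-Trikine and stood between the other two libraries in the combination. Early and stress genes in this class summed to 7102, 5765 and 6252 CPM, in the same order, and their part was not tested. Egr2, at 8.76, 2.56 and 2.78 CPM, and Egr3, at 9.95, 4.76 and 3.22 CPM, were high in mono-IL-10 alone. The second pattern was seen in CD8 cells too for Egr2, at 3.93, 1.28 and 1.53 CPM, and Egr3, at 4.54, 2.53 and 2.06 CPM. The first was not seen throughout: in CD8 cells Nr4a1, Nr4a3 and, by less than counting error, Nr4a2 were highest in the combination, and Nr4a1 in regulatory and Nr4a3 in naive cells were lowest in mono-IL-10.

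Other genes of the pathway were counted by list, in T cell-like cells. Over all genes of this class, 19.2% were called lower and 7.72% higher in IL-10/2-Trikine than in mono-IL-10, the shares against which the list counts stand. With TMM factors these shares were 11.4% and 14.1%, and with median-of-ratios factors 11.1% and 14.6%, so the direction of the larger share depended on the scaling. Of 25 early antigen-receptor response genes, 11 were lower and 1 higher, with a median of -0.44 beside -0.18 over all genes. Among them were the chemokine Ccl4, at 1111 and 404 CPM, the cytokine Tnf, at 19.8 and 8.66 CPM, Tagap, a GTPase regulator of activated T cells, at 42.8 and 20.5 CPM, and the early activation receptor Cd69, at 334 and 169 CPM. In CD4 cells 15 of 24 tested genes of the list were lower, against 12.0% of all genes, and none higher. In T cell-like cells again, 5 of 15 genes that restrain antigen-receptor signals were lower, including the ubiquitin editing enzyme Tnfaip3 at 548 and 265 CPM and the ubiquitin ligase Cblb at 598 and 322 CPM, which were the 2 left under either other scaling. Of 10 inhibitory receptors and exhaustion factors 3 were lower: Tox2 at 17.1 and 2.93 CPM, Lag3 at 200.4 and 115 CPM and Tox, which acts beside NR4A factors in exhausted T cells, at 472 and 275 CPM. Pdcd1, named here after its values were seen, stood at 135 and 188 CPM, not called. With TMM factors this list had 2 genes lower, Lag3 and Tox2, and Pdcd1 higher, and with median-of-ratios factors Tox2 lower and Pdcd1 higher, while the early response list had 10 lower and 2 higher with either. Of 4 tested partners of NR4A and EGR proteins 1 was lower, the retinoid X receptor gene Rxra, on 84 and 75 UMIs with a ratio of 0.501, while Nab1, a corepressor that binds EGR proteins, had a ratio of 0.775 and was not called. Of 20 early and stress genes 6 were lower and 1 higher, led by Jun at 156 and 33.3 CPM and the heat shock gene Hspa1b at 142 and 36.9 CPM.

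In the combination against IL-10/2-Trikine, where 6.92% of all genes in T cell-like cells were called higher and 3.57% lower (5.20% and 5.23% with median-of-ratios factors), 6 of the 25 early response genes were higher and none lower, with a median of 0.43 beside 0.06 over all genes. Ccl3 stood at 198 and 594 CPM, Ccl4 at 404 and 883 CPM, the inhibitory ligand Cd200 at 38.5 and 83.1 CPM and the chemokine Xcl1 at 193 and 385 CPM. Of the 10 inhibitory receptors and exhaustion factors 5 were higher and none lower, with Tox2 at 2.93 and 8.29 CPM and Lag3 at 115 and 216 CPM. Of the 15 restraint genes 3 were higher, with Rnf128 at 3.33 and 5.37 CPM and Tnfaip3 at 265 and 416 CPM, and of the 20 early and stress genes 1 was, Fosl2 at 73.5 and 127 CPM. With TMM factors 5, 4, 2 and 1 genes of these lists, in the order given, were higher. In C1q macrophage-like cells 8 of 23 tested early response genes were higher and 1 lower in IL-10/2-Trikine than in mono-IL-10, and 6 of 10 inhibitory genes were higher, against 6.57% of all genes higher and 2.13% lower; T cell markers summed there to the values given above.

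Within a class and library, cells were split by a UMI of Mki67 or of Pdcd1, the gene of PD-1. The split was run for the 6 genes alone, so no share of all genes stands beside its counts. Sub-clusters within a class were not held apart. In the CD8 class 28.4% of the Calcb-led, 19.4% of the Ly6c2-led and 60.0% of the third sub-cluster had an Mki67 UMI, and their part was not tested. Nr4a3 was lower in Mki67-positive cells with an interval below 1 in 10 of 12 combinations of T cell subset and library, above 1 in none, and the median ratio was 0.578. In CD4 T cell-like cells it stood at 101, 61.2 and 93.1 CPM with and 177, 130 and 159 CPM without an Mki67 UMI. Egr1 was lower in 8 of the 12 and higher in 1, Nr4a2 likewise in 8 and 1, and Nr4a1 was split evenly, lower in 4 and higher in 4. In NK cell-like classes Nr4a3 and Egr1 were lower in all 6 combinations. Cells with a UMI were deeper, with medians of 8380, 12174 and 11586 UMIs against 3798.5, 3022 and 3801.5 UMIs in the CD4 class; the levels are CPM, and the part of depth was not tested.

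Nr4a2 was higher in Pdcd1-positive cells, with an interval above 1, in 10 of 12 combinations and lower in none, with a median ratio of 1.30. In regulatory T cell-like cells it stood at 168, 161 and 224 CPM with and 140, 91.1 and 124 CPM without a Pdcd1 UMI, and the intervals of all 3 ratios lay above 1. A Foxp3 UMI was seen in 65.4% and a Cd8 UMI in 34.9% of the cells of this class, so it may not hold regulatory cells alone. In CD4 cells of the combination Nr4a2 stood at 297 and 315 CPM, with an interval of 0.888 to 1.01. In NK cell-like classes Nr4a2 was not higher: of 5 combinations none had an interval above 1 and 1 had one below, with a median ratio of 0.912. Among T cell subsets Egr1 went the other way, lower in Pdcd1-positive cells in 9 of 12 and higher in 1. Nr4a3 was lower in 5 and higher in 1. For Pdcd1 too, no share of all genes stands beside these counts. The part of depth and of sub-clusters in these ratios was not tested.

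**Figure D4:**
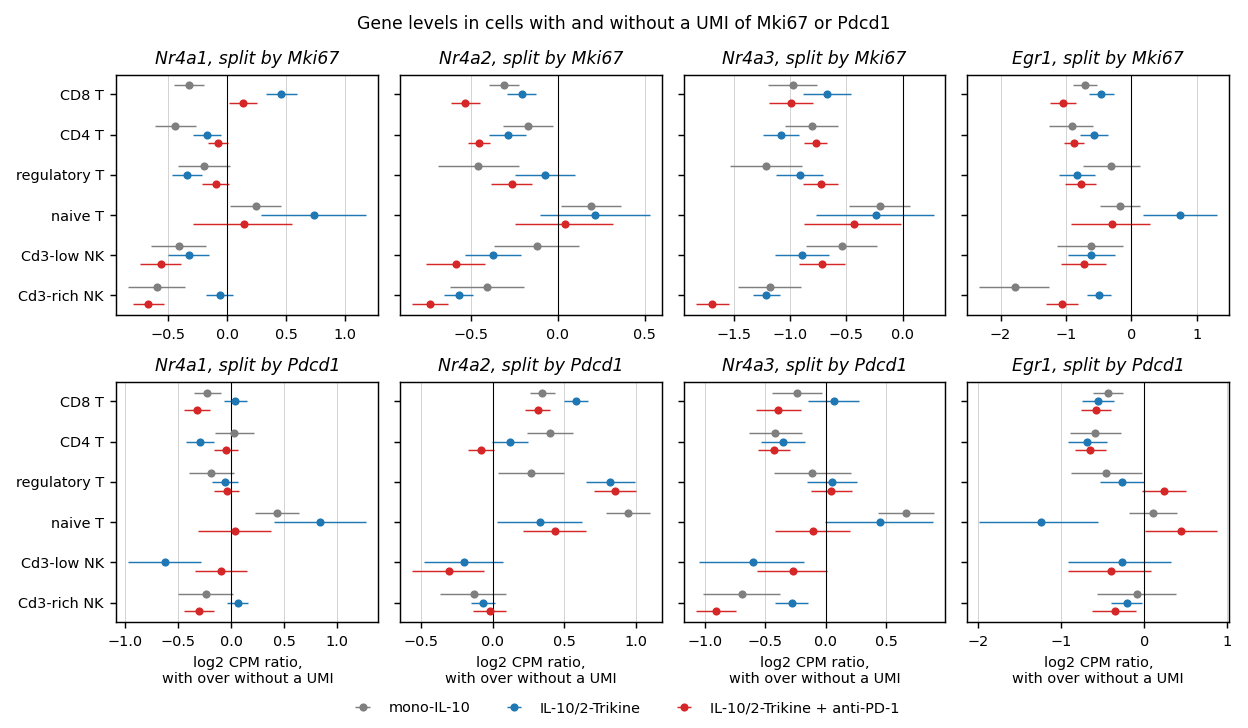
Log2 ratio of CPM between cells with and without a UMI of Mki67 (top) or Pdcd1 (bottom) for Nr4a1, Nr4a2, Nr4a3 and Egr1 in 6 lymphoid classes; colors are the libraries, grey mono-IL-10, blue IL-10/2-Trikine and red the combination, bars are 95% counting intervals, and combinations with too few cells are left out. Nr4a3 lies left of 0 for Mki67 in every class drawn, and Nr4a2 lies right of 0 for Pdcd1 in most T cell classes.

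Pairs of the members were counted in the same cell. In cells thinned to 1000 UMIs, the number with both Nr4a1 and Nr4a3 exceeded the product of their shares, with an interval above 1, in 21 of 32 combinations of class and library, and fell below it in none, with a median ratio of 1.68. In CD8 T cell-like cells 23, 16 and 41 cells held both, where the product gave 11.5, 8.67 and 20.3. Nr4a1 and Egr1 were above in 16 of 31, Nr4a1 and Nr4a2 in 16 of 33, Nr4a2 and Nr4a3 in 13 of 27, and Nr4a3 and Egr1 in 8 of 28. Nr4a2 and Egr1 were above in 4 of 32, with a median of 1.13. None of these pairs had an interval below 1. The combinations count T cell-like cells whole and again by subset, so they share cells. Doublets were kept and classes hold more than 1 kind of cell, which can raise these ratios, and their part was not tested. Pairs of other genes were not counted, so no background share stands beside these counts.

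**Figure D5:**
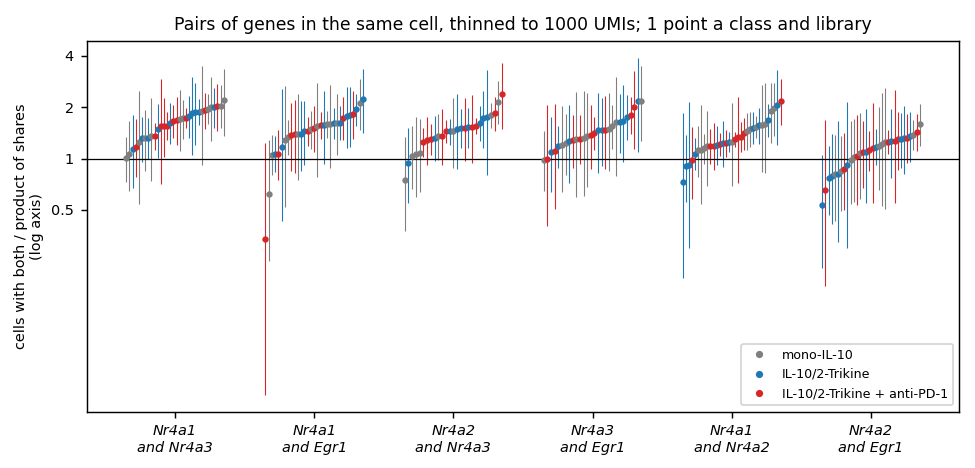
Number of cells with both genes of a pair over the number that the product of their shares gives (log axis), in cells thinned to 1000 UMIs; each point is 1 class in 1 library, sorted within a pair, colors are the libraries, and bars are 95% counting intervals. Points of Nr4a1 with Nr4a3 lie between 1.003 and 2.20, and points of Nr4a2 with Egr1 lie around 1.

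Across 43 sums of class and library in 15 classes, which share libraries, depth and free RNA, the members' levels did not follow each other as 1 group. On log2(CPM + 1), Pearson's r was 0.78 between Nr4a1 and Nr4a3, 0.67 between Egr1 and Egr2, 0.59 between Egr2 and Egr3 and -0.60 between Egr1 and Nr4a2. Out of 11273 genes, the nearest to Nr4a1 were Csrnp1 (r of 0.88), Srgn and Birc3, the nearest to Nr4a2 were Car5b (0.89), Esyt1 and Adora2a, and the nearest to Nr4a3 were Nfkb1 (0.86), Nfkbid and Jak2. The nearest to Egr1 were Zfp503 (0.92), Dach1 and Slc2a1, to Egr2 Gm38115 (0.80), Gadd45g and Nrp2, and to Egr3 Mreg (0.77), Pik3c2b and Hepacam2. These are descriptions over classes, and no p-value applies to them.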

How the data were processed

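Single-cell RNA libraries (10x Genomics, 3′ v3.1) of live CD45+ cells from KP1 tumors gave 1 library for each of 3 treatments. The deposited tables hold raw UMI counts per gene and barcode, made by the authors with Cell Ranger; the matrix header names version 8.0.0, and the submitters' notes list mm10 while the methods name another version and build, so no coordinates were taken from these tables. The 6 genes, the gene lists and the tests were chosen with earlier results of these data known.

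Barcodes with at least 200 genes and at most 20% mitochondrial counts were kept. Cells were clustered with Leiden (scanpy 1.11.5, igraph 0.11.9) and named by fixed markers; "-like" names rest on these rebuilt classes. Counts were summed per class and library, and levels are UMIs per 1000000 (CPM). Since each group is 1 library, no test was run: levels carry exact Poisson, ratios exact conditional binomial and shares exact Clopper-Pearson 95% intervals, which cover counting error only. A gene was called where its ratio reached 1.5-fold with an interval that left out 1, among genes with at least 20 UMIs in the pair. Other genes were named by rule: in each list, the 4 genes with the largest absolute log2 ratio in T cell-like cells among those with at least 100 UMIs in the pair; where fewer are printed, they are the first of these. Ratio calls were tested on simulated data: in T cell-like cells 88% of 100 genes set 2-fold apart and 95% set 3-fold apart were recovered among 15438 genes for IL-10/2-Trikine against mono-IL-10, with 0.820% of unchanged genes called. The simulated counts held counting error only, without variation between mice or libraries. These shares therefore do not give the error rate of calls between 2 libraries. Doublets were not removed in the main values; Scrublet's automatic threshold marked cells in 1 library and none in the other two. TMM factors came from edgeR 4.0.16. Promoter sequences are from RefSeq.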

Additional observations from a re-analysis of the deposited data

Results flagged for a closer look

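Genes were flagged here when called in C1q macrophage-like cells and called in the opposite direction in a T cell subset or NK cell-like class. The lymphoid class given holds the most UMIs of the gene among those, so the opposite signs follow from this choice. In 5 genes the IL-10/2-Trikine library stood higher than mono-IL-10 in C1q macrophage-like cells and lower in a lymphoid class. The log2 ratio in macrophages minus that in the lymphoid class was 1.74 for Nr4a2 (against CD4 T cell-like cells), 1.73 for Nr4a3 (against Cd3-rich NK cell-like cells), and 1.45 for Egr1, 3.25 for Egr2 and 3.01 for Egr3 (against CD8 T cell-like cells). For the combination against IL-10/2-Trikine, Egr3 was lower in macrophages and higher in Cd3-rich NK cell-like cells, a difference of -3.60. The macrophage call of Nr4a2 ended with free RNA subtracted, and that of Nr4a3 without barcodes of another lineage. Egr3 rested on few UMIs in macrophages, and its Cd3-rich NK cell-like ratio changed direction without Mki67-positive cells. With 1 library a group the differences given here were not tested.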

How the results depend on the processing

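Of 43 calls over 10 classes and 2 comparisons, 18 held under every alternative that kept the 1.5-fold limit, and 17 of the 43 and 10 of the 18 reached a 2-fold limit. Their 504 alternative values gave 501 in the direction reported, and 419 were still called. The exceptions in direction, on the log2 scale, were Egr3 in Cd3-low NK cell-like cells (0.074) and Egr1 in B cell-like cells (1.15), both for IL-10/2-Trikine against mono-IL-10 with a marker gate per cell, and Egr3 in Cd3-rich NK cell-like cells for the combination without Mki67-positive cells (-0.32). The cause was not tested.

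For IL-10/2-Trikine against mono-IL-10 in T cell-like cells, the ratio of the sum of the 6 genes (0.841) was 0.858 at a higher Leiden resolution, 0.872 without Mki67-positive cells, 0.874 without the 1% of cells with the largest sums, 0.976 with TMM, 0.985 with median-of-ratios factors, 0.869 with every cell weighing the same and 0.802 with sub-clusters at equal shares. The genes called lower went from 3 to 1 with a 2-fold limit. For the combination against IL-10/2-Trikine the ratio (1.33) was 1.30 with a marker gate and 1.30 at a higher Leiden resolution, 1.37 without Mki67-positive cells, 1.28 with TMM, 1.26 with median-of-ratios factors and 1.25 with equal sub-cluster shares. Its 1 call, Nr4a3, became 0 at the higher resolution, without Mki67-positive cells and with a 2-fold limit. In B cell-like cells the ratio of the sum for the combination (1.13) turned to 0.912 without barcodes of another lineage, 0.923 with the marker gate, 0.978 without Mki67-positive cells and 0.940 with every cell weighing the same.

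No paired analysis was possible because each group is 1 library, and for the same reason leaving out a replicate was not run. Free RNA subtraction was not run for B cell-like and Chil3-led classes, where its estimated share passed 20% in at least 1 library (48.2% to 68.5% and 18.4% to 43.0%). In these classes the markers of other lineages leave the true share not estimable. Leaving out the highest 10% of Scrublet scores, equal sub-cluster shares and the gene list counts under other scaling factors were chosen after seeing the data. Egr2 and Egr3 rest on under 100 UMIs in most T cell subsets, which limits them.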
